A study of Pimephales promelas with 20 samples.

Results

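The comparison described here set 5 liver arrays of female fathead minnows exposed to phenanthrene at 287 ng/L against 5 liver arrays of unexposed females, 10 of the 20 arrays in the series. The arrays were taken by the dose label alone, although earlier results of these data were known when the comparison was chosen. The fathead minnow (Pimephales promelas) is a small freshwater fish used widely in toxicity testing. Exposure lasted 48 h. The controls carry the dose label 0 ng/L and no agent, and the other groups, at 29 and 1006 ng/L with 5 arrays each, were used for the estimate of spread and for values set beside those at 287 ng/L. All arrays carried total RNA of female liver, labelled with Cy3 on a one-colour Agilent array. The labels do not say that each array came from a separate fish or whether livers were pooled, so the spread between arrays may be partly technical. They give no age and no carrier solvent.

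Phenanthrene is a polycyclic aromatic hydrocarbon, a class of fused-ring compounds in crude oil and combustion residues. In fish, liver enzymes of the cytochrome P450 family oxidise such compounds before they are conjugated and excreted, and some members of the class switch on the genes for these enzymes through the aryl hydrocarbon receptor. The liver of a female fish also makes egg yolk precursors under oestrogen. Probes were known here by their design identifier and by the name of the sequence they were built from, and 0 of the 15208 fish probes had a name that was found in the gene table used here. The genes of these pathways could therefore not be located among the probes, and the labelled tissue could not be checked against liver markers. What follows counts the probes, gives the size and sign of their differences, and names 4 of them.

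Of the 20 arrays, 2 stood apart in part of their surface: 287 ng/L replicate 36 and 1006 ng/L replicate 42 each had blocks of dim spots, and values with the spots there set to missing are given further on. The title and the dose label of replicate 27 both put it at 287 ng/L, although its number follows those of the 29 ng/L arrays, 22 to 26. It was used as labelled, and values without it are given where a result rests on it.

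At 287 ng/L no probe passed the test against control. Of 10600 probes tested, limma's moderated test called 0 at an adjusted p under 0.05, which is 0% of those tested, and an ordinary linear model also called 0. The lowest adjusted p was 0.359. Before adjustment, 591 probes had a p under 0.05, 5.58% of those tested, where evenly spread p-values would put 530. The ordinary linear model gave 615. Both counts rest on a spread estimated from the arrays of every dose. With only the 10 arrays compared, limma put 782 probes under 0.05 before adjustment. It still called 0, with a lowest adjusted p of 0.379. Over the 38 alternatives the number before adjustment ran from 438 to 1063, but the 438 were among only 7254 probes tested. With 10600 tested it was 481 with a 75th percentile scaling and 453 without 287 ng/L replicate 35, both under 530. Without control replicate 6 the number was 815, with a lowest adjusted p of 0.0567 by limma. The excess of this number over an even spread therefore depends on the processing and on the arrays used. The 591 divided into 298 with a higher and 293 with a lower signal at 287 ng/L. This balance moved with the scaling of the arrays: 50.4% of such probes were higher with the loess scaling used here, 67.3% in the authors' deposited table, 67.4% with a 75th percentile scaling, 64.6% with quantile scaling and 42.6% with normexp background correction. No excess of one direction is therefore given. Beside the first class of p-values the fullest of the other classes of width 0.05 held 577 probes and the emptiest 480.

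**Figure D1:**
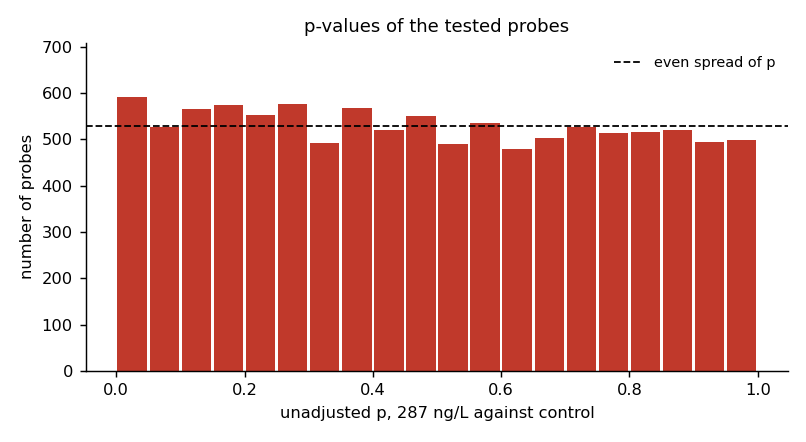
Number of tested probes (vertical axis) by unadjusted p of 287 ng/L against control (horizontal axis, classes of 0.05). The dashed line marks the 530 probes per class of an even spread, and the first class, at 591, stands little above the others, which hold 480 to 577. The p-values use a spread estimated from the arrays of every dose. With only the 10 arrays compared the number under 0.05 was 782. Over the alternatives it was 438 to 1063, with the 438 among only 7254 probes tested.

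The 4 named probes are those with the lowest p in each direction among probes that 4 or more arrays of each group showed well above background, 2 higher and 2 lower at 287 ng/L. They ranked 1, 2, 3 and 5 by p among all probes tested. None passed, so what follows gives values and no change. Since the probes were ordered by this same comparison, the separation of their groups is no further evidence. The other doses share these controls, so their differences from control are not independent of this choice. Values are log2 normalized signal, on which 1 unit is a doubling of brightness.

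Probe UF_Ppr_AF_112748 had the lowest p of all. On control replicates 3, 4, 5, 6 and 7 it read 7.82, 7.13, 6.87, 7.56 and 6.47, and on 287 ng/L replicates 27, 32, 35, 36 and 38 it read 11.75, 9.74, 8.51, 9.36 and 8.99. Every exposed array was brighter than every control, and replicate 27, at 11.75, stood above the next exposed array, at 9.74. The control mean was 7.17 ± 0.54 (SD, n = 5) and the exposed mean 9.67 ± 1.25, a log2 difference of 2.50 (SE 0.47) or 5.65-fold, with a 95% interval of 1.52 to 3.47 that is not adjusted for the number of probes and an adjusted p of 0.359 by limma. Without replicate 27 the log2 difference was 1.98 (adjusted p = 0.248).

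For 29 ng/L the mean of UF_Ppr_AF_112748 was 9.43 ± 0.45 and for 1006 ng/L it was 11.28 ± 0.47 (SD, n = 5 each). Replicate 27 lay inside the range of the 1006 ng/L arrays, 10.57 to 11.79, and the other 4 arrays at 287 ng/L lay below all of them. The difference of 287 from 29 ng/L was 0.24 log2 units (95% interval -0.73 to 1.21, adjusted p = 0.997 by limma) and that from 1006 ng/L was -1.61 (-2.58 to -0.64, adjusted p = 0.893 by limma). These neighbours in the order of means overlapped, and the range at 29 ng/L (9.07 to 10.21) lay inside that at 287 ng/L (8.51 to 11.75). At 1006 ng/L the probe did pass against the same controls, with a log2 difference of 4.11 (adjusted p = 0.000363 by limma).

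Probe UF_Ppr_AF_114590 is the other of the probes named for a higher signal. Its control values were 8.95, 8.44, 9.25, 9.16 and 8.76, in the same order of replicates, and its values at 287 ng/L were 9.64, 10.53, 10.72, 10.61 and 9.80. The groups did not overlap, and replicates 27 and 38 were the exposed arrays nearest to the controls. The means of 8.91 ± 0.32 (SD, n = 5) and 10.26 ± 0.50 differed by 1.34 log2 units (SE 0.28), or 2.54-fold (95% interval 0.76 to 1.93, adjusted p = 0.520 by limma). At 1006 ng/L the mean was 10.79 ± 0.30 and the probe passed against control (log2 difference 1.88, adjusted p = 0.00827 by limma), but 287 and 1006 ng/L did not pass against each other (-0.53, interval -1.12 to 0.05, adjusted p = 0.893 by limma).

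Probe UF_Ppr_AF_103138 was dimmer at 287 ng/L than in any control. Its control values were 6.66, 5.63, 6.36, 5.28 and 6.50, and those at 287 ng/L were 4.03, 4.39, 3.99, 4.29 and 4.85. It was well above background on 5 controls and on 4 of the 5 exposed arrays. The means were 6.09 ± 0.60 (SD, n = 5) and 4.31 ± 0.34, a log2 difference of -1.78 (SE 0.38, 95% interval -2.57 to -0.98, adjusted p = 0.520 by limma). These exposed values are near background, and with normexp background correction the difference was -0.62 (adjusted p = 0.774 by limma).

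The lowest mean of this probe was at 287 ng/L and not at the highest dose. At 29 ng/L it averaged 5.79 ± 0.90 (SD, n = 5) and at 1006 ng/L 5.23 ± 0.35. The difference of 287 from 29 ng/L was -1.48 (95% interval -2.28 to -0.69, adjusted p = 0.992 by limma) and that from 1006 ng/L was -0.92 (-1.71 to -0.12, adjusted p = 0.893 by limma). Neither passed. The brightest array at 287 ng/L (4.85) was brighter than the dimmest at 29 ng/L (4.74) and at 1006 ng/L (4.79). Because the probe was picked for low values at 287 ng/L, a lowest mean there was favoured in advance and is no further evidence. Of the 20 lower probes with the lowest p, 16 lay farther from control at 287 than at 1006 ng/L. Of the 20 such higher probes, 4 did. Both sets were ordered by p at 287 ng/L, so larger differences at that dose were favoured in advance. The share over all tested probes is not given, nor how many of the 20 lower probes lay in blocks of dim spots. These counts therefore show no dose pattern.

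Probe UF_Ppr_AF_111513 had a lower mean than control at every dose. Its control values were 8.42, 8.17, 9.32, 8.42 and 8.96, and those at 287 ng/L were 6.26, 5.85, 6.06, 7.41 and 7.51. The groups did not overlap, with exposed replicates 36 and 38 nearest to the controls. The means of 8.66 ± 0.47 (SD, n = 5) and 6.62 ± 0.78 gave a log2 difference of -2.04 (SE 0.47), 4.11-fold lower than control (95% interval -3.03 to -1.05, adjusted p = 0.623 by limma). The means at 29 and 1006 ng/L were 6.75 ± 0.99 and 7.07 ± 0.76, and 287 ng/L differed from them by -0.13 (interval -1.12 to 0.86) and -0.46 (-1.45 to 0.53), with adjusted p of 0.999 and 0.893 by limma. Against the same controls the other doses gave -1.91 (adjusted p = 0.671) and -1.58 (adjusted p = 0.180) by limma.

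**Figure D2:**
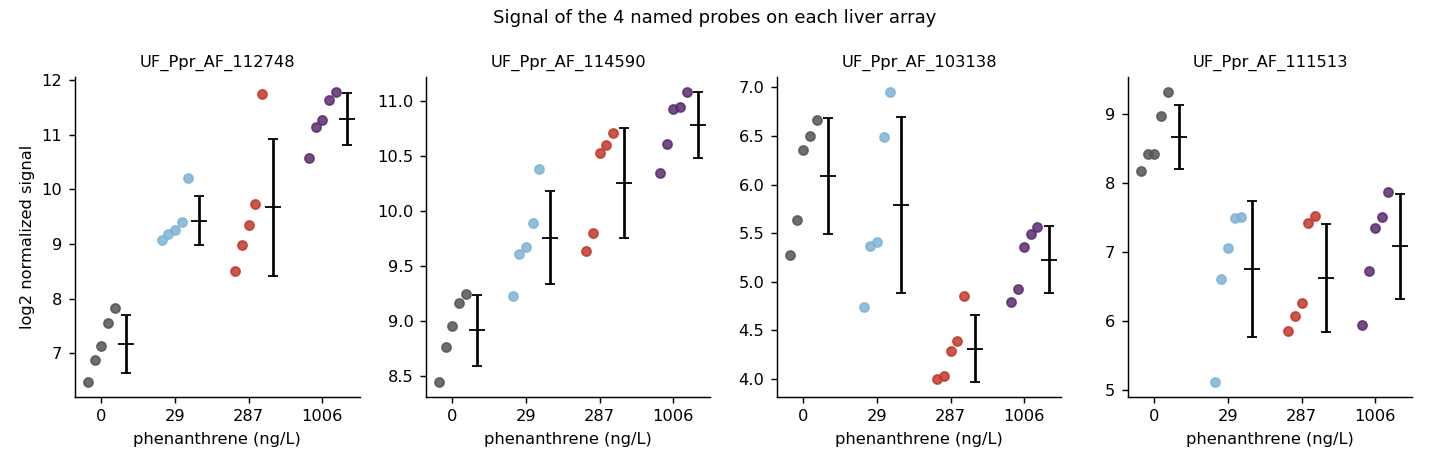
Log2 normalized signal of the 4 named probes (vertical axes, each with its own scale that does not start at 0) on every array, by phenanthrene dose (horizontal axes); points are arrays, ordered by value within a dose, and bars are means ± SD of 5 arrays. In each panel the 5 arrays at 287 ng/L lie beyond the 5 controls, and for UF_Ppr_AF_112748 replicate 27, at 11.75, stands among the arrays at 1006 ng/L.

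Within each slide that held both groups, the differences of the named probes varied in size. Their direction there was fixed in advance, since every array at 287 ng/L lay beyond every control. The arrays lay on 5 slides, of which slides 3 and 4 held 2 controls and 2 arrays at 287 ng/L each. Slide 2 held control replicate 6 and slide 1 held 287 ng/L replicate 36. The log2 difference of UF_Ppr_AF_112748 was 2.22 (SE 0.65) within slide 3 and 3.13 (SE 0.99) within slide 4, and that of UF_Ppr_AF_114590 was 1.31 (SE 0.50) and 1.33 (SE 0.56). For UF_Ppr_AF_103138 the values were -1.97 (SE 0.46) and -1.98 (SE 0.45), and for UF_Ppr_AF_111513 they were -2.01 (SE 0.75) and -2.59 (SE 0.81). None passed in either slide, and the difference between slides was not tested. In either slide by itself limma called 0 probes at 287 ng/L, as did the ordinary linear model, and 469 probes in slide 3 and 471 in slide 4 had a p under 0.05 before adjustment. With slide as a fixed block both models again called 0. The lowest adjusted p was then 0.135 by limma, and 586 probes had a p under 0.05 before adjustment.

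Over all probes the median size of the estimated differences was 0.32 log2 units, below the median SE of 0.44. For 822 probes, or 7.75%, the estimated difference from control was more than 1 unit, that is more than a doubling. Of these, 406 were higher and 416 lower at 287 ng/L, and 315 of the 822 had an unadjusted p under 0.05. Of the 822, 224 stayed beyond 1 unit whichever of the 10 arrays was left out. Since the 822 were picked for passing this limit, some loss was fixed in advance. The whole number beyond 1 unit was 756 without control replicate 3, the lowest, and 1263 without control replicate 6, the highest. There were 71 probes beyond 2 units, 29 higher and 42 lower. The largest difference below control, -4.05, came from controls spread between 2.29 and 12.99 and exposed arrays between 2.62 and 7.96, groups that overlapped (95% interval -8.24 to 0.14, adjusted p = 0.888 by limma). That probe was well above background on 4 controls and on 2 exposed arrays. The largest above control, 3.29, had controls between 2.78 and 4.80 and exposed arrays between 5.77 and 9.71, which did not overlap (95% interval 1.002 to 5.58, adjusted p = 0.832 by limma). It was well above background on 5 exposed arrays and on 3 controls, and so was tested through its exposed arrays alone. In both probes the dimmer group lay partly at background, so neither size is exact.

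**Figure D3:**
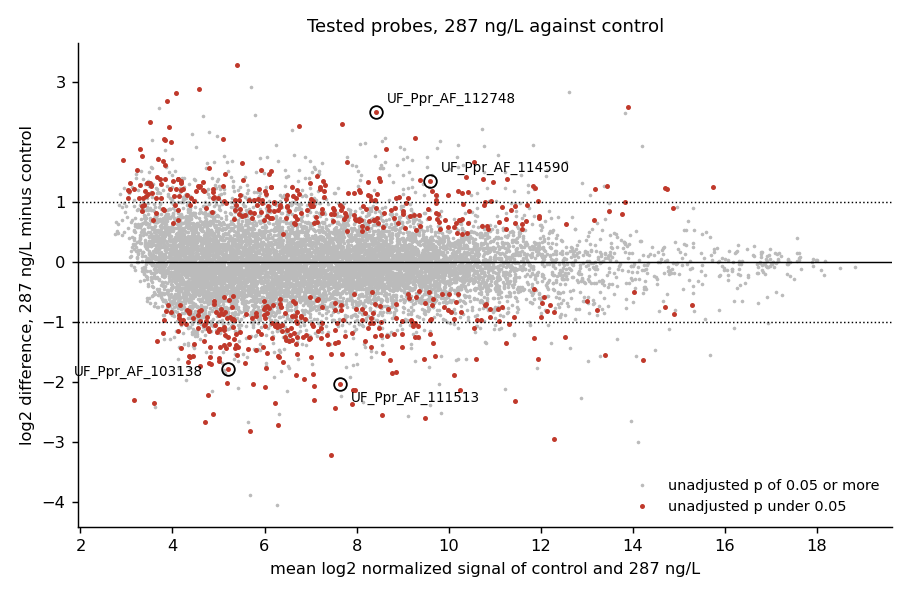
Log2 difference of 287 ng/L minus control (vertical axis) against the mean log2 normalized signal of both groups (horizontal axis) for the 10600 tested probes; red points have an unadjusted p under 0.05, dotted lines mark 1 log2 unit and circles mark the 4 named probes. Differences scatter on both sides of 0, and 822 probes lie outside the dotted lines.

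In 158 probes, 1.49% of those tested, the 5 exposed arrays lay wholly beyond the 5 controls. They were higher in 90 (0.849%) and lower in 68 (0.642%), with a median size of 0.94 log2 units and a range of 0.30 to 3.29. This split also moved with the scaling, to 131 higher and 42 lower in the authors' deposited table, 108 and 31 with the 75th percentile, 120 and 41 with quantile scaling, and 83 and 53 with normexp background correction. The filter admitted 1604 probes through the arrays at 287 ng/L only and 94 through controls only. How many of the 90 were among the 1604 is not given. Among the 7254 probes well above background on all 10 arrays the split was 72 higher and 42 lower. Of the 158, 121 had an unadjusted p under 0.05. Against the same controls, 82 probes (0.774%) did so at 29 ng/L and 401 (3.78%) at 1006 ng/L. Since the doses share the controls, these counts are not independent. Leaving out an array can only raise the count at 287 ng/L, since fewer arrays make separation easier. Leaving out control replicate 3, 4, 5, 6 or 7 gave 259, 229, 272, 474 or 218 probes. Leaving out an exposed array gave 355 for replicate 27, 225 for 32, 248 for 35, 291 for 36 and 275 for 38.

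Counts at the other doses are set beside those at 287 ng/L, all from the same controls. Probes were admitted by their brightness in controls or at 287 ng/L, so those well above background only at another dose were not tested. A p under 0.05 before adjustment was found for 600 probes (5.66%) at the lowest dose, 591 at the middle dose and 1381 (13%) at the highest, and the median sizes of difference from control were 0.32, 0.32 and 0.44 log2 units. Limma called 0, 0 and 21 probes, the last being 0.198% of those tested. Tested directly, 287 against 29 ng/L gave 0 probes (0%) with limma, as with the ordinary linear model, and 443 (4.18%) had a p under 0.05 before adjustment. For 287 against 1006 ng/L both models also gave 0 (0%), and 500 (4.72%) had such a p. With 29 ng/L replicate 26 left out, limma called 2 probes in the first of these tests, and with 1006 ng/L replicate 45 left out it called 1 in the second. None of these was a named probe.

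The counts of 0 leave room for sizeable differences. The median 95% interval of a probe reached 0.92 log2 units to each side of its estimate, a factor of 1.90. For 3030 probes, 28.6% of those tested, the whole interval lay within 1 unit of no difference, and for 81.8% it lay within 2 units. With probes ordered by mean signal, the share within 1 unit was 12.6% in the dimmest 3534, 25.4% in the middle 3533 and 47.8% in the brightest 3533. The shares at an unadjusted p under 0.05 were 5.49%, 6.03% and 5.21% in the same order. For the other 71.4% of probes the interval reached beyond 1 unit on at least one side.

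Exposed and control arrays were about equally scattered. The median SD of a probe was 0.57 log2 units in controls and 0.55 at 287 ng/L, beside 0.77 at 29 ng/L and 0.66 at 1006 ng/L, and the SD was larger at 287 ng/L than in controls for 49.1% of probes. Without replicate 36, which had dim blocks, the median SD at 287 ng/L was 0.49 and the share 43.4%. Without control replicate 6 the median SD of controls was 0.51. Across tested probes the median correlation of array pairs was 0.907 among controls (0.844 to 0.935), 0.898 among arrays at 287 ng/L (0.871 to 0.943) and 0.906 between the groups (0.838 to 0.934). Probes are not independent replicates and all arrays share their design, so these values describe similarity only.

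The number of probes well above background had a higher mean at 287 ng/L, by less than the spread between arrays. It was 11796, 10903, 10457, 8781 and 8722 on control replicates 3, 4, 5, 6 and 7, and 9270, 12516, 12797, 10958 and 11412 on 287 ng/L replicates 27, 32, 35, 36 and 38. The groups overlapped, with 287 ng/L replicates 32 and 35 above every control. The means of 10132 ± 1349 (SD, n = 5) and 11391 ± 1408 differed by 1259, and the exact permutation test, two-sided, gave p = 0.175, where the smallest possible is 0.00794. The difference was 1705 within slide 3 and 353.5 within slide 4. The 75th percentile of processed signal averaged 264 ± 70.5 intensity units in controls and 381 ± 109 at 287 ng/L (n = 5 each, two-sided exact permutation p = 0.0873).

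**Figure D4:**
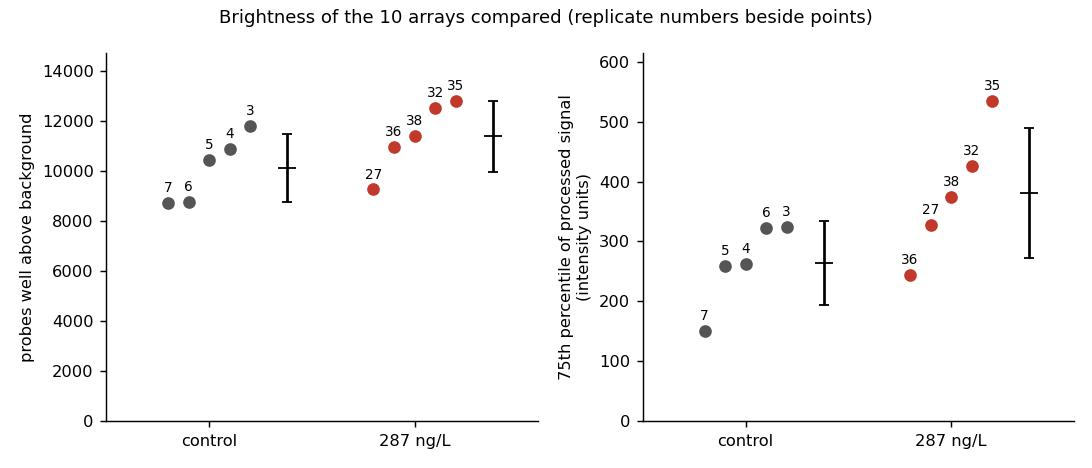
Number of probes well above background (left) and 75th percentile of processed signal in intensity units (right) on each of the 10 arrays, with replicate numbers; bars are means ± SD of 5 arrays. The groups overlap in both panels, and replicates 32 and 35 at 287 ng/L are the brightest arrays.

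Detection of single probes leaned the same way as this brightness. Of the 10600 probes tested, 8902 reached well above background in both groups, counting a group where 4 or more of its arrays did, 1604 at 287 ng/L only and 94 in controls only. On all 10 arrays 7254 probes were well above background. There were 6 probes well above background on all 5 exposed arrays and on 0 of the 5 controls, and 0 probes with the reverse. Setting each control at the lowest signal of any probe well above background on that array, or at the probe's own where higher, these 6 were at least 1.46-fold to at least 3.85-fold brighter at 287 ng/L, with adjusted p from 0.623 to 0.880 by limma. These 6 were picked for this pattern and were tested through their exposed arrays alone, so the folds are no further evidence of a difference. The part of array brightness in the counts of detected probes was not tested.

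On 287 ng/L replicate 36 a region near the centre was dim. Of 96 blocks of spot positions, 10 had a mean deviation from the median array below -0.50 log2 units, down to -2.91, and 1066 tested probes lay there, 10.1% of all. In these blocks the median log2 difference from control was -0.41, against -0.01 elsewhere. Of the 416 probes lower by more than 1 unit at 287 ng/L, 116 lay in these blocks (27.9%), and of the 406 higher by more than 1 unit, 20 did. An unadjusted p under 0.05 was found for 5.44% of the probes there and 5.59% of those elsewhere. Of such probes in the dim blocks, 52 were lower and 6 higher. With the spots of dim blocks set to missing on their array, limma and the ordinary linear model still called 0 probes at 287 ng/L, and 618 had a p under 0.05 before adjustment, 340 higher and 278 lower. On 1006 ng/L replicate 42, 8 blocks were below -0.50, down to -2.03, and held 858 tested probes. With dim blocks missing, 287 against 1006 ng/L gave 0 probes with both models, and 539 had a p under 0.05 before adjustment. Leaving out replicate 42 altogether gave 0 as well, and 721 such probes. None of the 4 named probes lay in a dim block of either array.

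**Figure D5:**
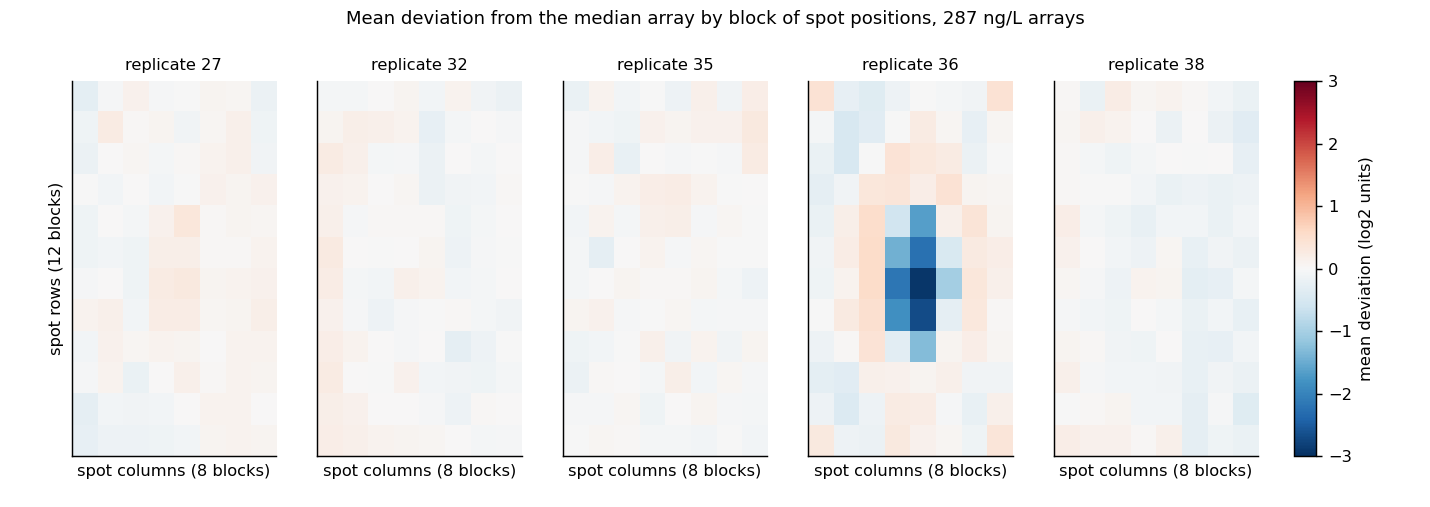
Mean deviation of tested probes from the median array, in log2 units (colour), by 12 by 8 blocks of spot positions on the 5 arrays at 287 ng/L. Replicate 36 has 10 blocks under -0.50 near its centre and the other 4 arrays have none.

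A second probe carried the same sequence name, with the suffix of the name left out, for 188 of the names tested. The suffixes within a pair may differ and were not compared. In 123 of these pairs (65.4%) both probes lay on the same side of control at 287 ng/L, and the median gap between their log2 differences was 0.36. In 16 pairs at least 1 probe had an unadjusted p under 0.05, and in 0 pairs did both. Only 5.58% of all tested probes had such a p, so these small counts do not show whether partners agree. The correlation of the log2 differences over the 188 pairs was r = 0.361, a description only, since both probes were read on the same arrays. None of the 4 named probes had a tested partner of this kind.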

How the data were processed

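Each array was deposited as scanner output with intensity values per spot, read in 1 colour by Agilent Feature Extraction 10.7.1.1, per the file headers. Its processed intensity was background-subtracted and spatially detrended, per the file headers, and not scaled between arrays. The authors' deposited table holds log2 values that its column names call loess normalized, with settings not given in the sources used here. It served as an alternative. Its 20 columns correlated with the log2 processed intensity of their own arrays at r of at least 0.992. Its column medians were 5.45 to 5.51 in controls, 5.45 to 5.60 at 29 ng/L, 5.48 to 5.69 at 287 ng/L and 5.39 to 5.51 at 1006 ng/L, and any further centring of it is unknown. It gave no value for 714 probes on 287 ng/L replicate 36, 5 of them tested, and its 1 column that belonged to no sample was left out.

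From the scanner output, 536 control spots were left out of 15744, spots marked as outliers were set to missing, and the log2 processed signal was normalized by cyclic loess in R 4.3.3 with limma 3.58.1. A probe was tested if at least 4 control arrays, or at least 4 at 287 ng/L, had it well above background, 10600 of 15208 or 69.7%. One model (lmFit, eBayes) was fitted to all 20 arrays, with the 4 dose groups as its terms. Tests were two-sided, with Benjamini-Hochberg adjustment over all tested probes, and a probe passed under 0.05. The fit was tested on simulated data. On the 10 arrays 57.4% to 84.1% of fish probes were well above background; brightness limits what dim probes show, and the number of arrays limits precision. The named probes are the 2 higher and 2 lower with the lowest p, among probes with a value on all 10 arrays that 4 or more of each group showed well above background. The 17 planned gene lists could not be used, since no probe had a gene name. The comparison, lists and rule were chosen with earlier results of these data known. Alternatives covered scaling, background, filters, slide, scan session, array weights, marked spots, dim blocks and leaving out arrays.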

Additional observations from a re-analysis of the deposited data

Results flagged for a closer look

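Dixon's ratio was computed for 28 sets of values, each over the 5 arrays of a group, and exceeded 0.71 in 4 of them. For normally distributed values chance alone exceeds it in about 1 set of 20. That rate need not hold here, since marked spots are small counts, block values are minima and the sets share arrays. The lowest block mean on 287 ng/L replicate 36 was -2.91 log2 units, while the remaining 287 ng/L arrays had -0.36 to -0.28. On 1006 ng/L replicate 42 it was -2.03, while the other arrays at that dose had -0.44 to -0.21. For control replicate 3 the correlation with every other array averaged 0.868, while the remaining controls averaged 0.897 to 0.903. On control replicate 4 the scanner software marked 7 spots as outliers, and on the remaining controls 0 to 2. Marked spots at 29 and 1006 ng/L were not among the sets, and replicate 22 at 29 ng/L had 201. Without replicate 22 limma called 0 probes at 287 ng/L against control, and 739 had a p under 0.05 before adjustment.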

How the results depend on the processing

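At 287 ng/L against control, 0 probes passed in each of the 38 alternatives. The ordinary linear model is 1 of these and the rest used limma. Between 438 and 1063 probes had a p under 0.05 before adjustment. The lowest number came from the filter that asked for all 10 arrays well above background and left 7254 probes. The highest, 1063 beside 591, came with array weights, where the lowest adjusted p was 0.0727. Without control replicate 6 the lowest adjusted p by limma came nearer to the threshold, at 0.0567, and 815 probes had a p under 0.05 before adjustment. Run on top of an alternative, the ordinary linear model called 1 probe with the 75th percentile scaling, without control replicate 6 and in scan session 1 alone. The 4 named probes kept their direction and did not pass in any alternative that tested them. Where an alternative only left out arrays, the direction was fixed in advance, since the groups of these probes do not overlap. Their log2 differences were 1.91 to 3.13 for UF_Ppr_AF_112748, at least 1.17 for UF_Ppr_AF_114590, -1.98 to -0.62 for UF_Ppr_AF_103138 and -2.59 to -1.43 for UF_Ppr_AF_111513. Between doses, 287 against 29 ng/L gave 2 probes within slide 3 and 0 to 2 without single arrays, and 287 against 1006 ng/L gave 1 with array weights and 0 to 1 without single arrays; the cause was not tested. The 158 probes whose groups do not overlap became 4643 within slide 3, 4490 within slide 4, 713 in scan session 1 alone, 652 without both 287 ng/L replicates 27 and 36, and 218 to 474 without single arrays. Leaving out arrays can only raise this number, and the cause of the differences between single arrays was not tested. Within a slide only 2 arrays of each group are compared, so many probes separate there without any difference between the groups. Under other scalings and filters the probes whose groups do not overlap numbered 114 to 174. Leaving out both replicates, session 1 alone, and leaving out arrays at 29 and 1006 ng/L were chosen after seeing the data. No paired analysis was possible because the groups share no replicate numbers. Dim probes are limited by their signal over background.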
